A study of Mus musculus with 12 samples.

Results

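The mitosis and spindle genes are 39 listed genes whose products carry a cell from entry into mitosis to its division, and they were followed in cultured macrophages with and without the nuclear receptor ERRα, after lipopolysaccharide (LPS) or its solvent. The members were the non-control probes of the array whose transcript accession belonged to a listed gene. All 39 were on the array, with 57 probes, of 20887 named genes in all, and 37 of them had a signal high enough to be tested among 13116 genes. The rule names the genes by function.

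Expression was measured with 1-colour microarrays in bone marrow-derived macrophages, which are grown from marrow progenitors in macrophage colony-stimulating factor (M-CSF). Per the labels the donors were male C57BL6 mice aged 6 to 8 weeks, and differentiation took 5 to 7 days. The 4 groups of 3 arrays were ERRα-/- macrophages with LPS at 100 ng/mL, ERRα-/- macrophages with PBS as the solvent control, ERRα+/+ macrophages with LPS at 100 ng/mL, and ERRα+/+ macrophages with PBS. The series title calls the ERRα-/- animals knock-out mice, and neither the deleted part of Esrra, the gene of ERRα, nor the duration of LPS is given in the sources used here. The labels do not say whether replicates came from separate mice or cultures, so p-values measure only the spread between these arrays, which may be technical. The source field of replicates 2 and 3 reads cell line, while the other labels of these samples name primary macrophages.

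Replicate 1 of each group was on slide 1 and replicates 2 and 3 were on slide 2. Replicates 2 and 3 of a group differed by a median of 0.077 to 0.170 on the log2 scale over 22294 probes, against 0.325 to 0.440 between either of them and replicate 1. Each array had a 75th percentile of the signal between 340 and 701, and its share of probes well above background lay between 45.4% and 56.7%, with no saturated spot. Spots of the same probe had a coefficient of variation of 3.80% to 4.80% on 10 arrays, and of 13.0% and 8.44% on the remaining pair, replicates 2 and 3 of ERRα+/+ PBS. Esrra read 4.20, 3.69 and 3.61 (log2 signal relative to the 75th percentile of the array) with LPS and 2.28, 0.03 and -0.06 with PBS in ERRα-/- arrays, against 5.66, 6.03 and 6.14 with LPS and 4.34, 4.19 and 4.49 with PBS in ERRα+/+ arrays. Its ERRα-/- signal was lower under PBS (log2 difference -3.59 ± 0.51, SE, adjusted p = 0.0218) and not called under LPS (-2.11 ± 0.51, adjusted p = 0.200), and where its probe lies relative to the deleted part was not determined. Of 9 macrophage markers on the array, 9 were well above background on all 12 arrays, with Csf1r, the M-CSF receptor, the highest.

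Mitosis is driven by cyclin-dependent kinase 1 with its A- and B-type cyclins, and is paced by Polo-like and Aurora kinases, the spindle checkpoint and the anaphase-promoting complex. Most of the genes are transcribed late in the cell cycle, through promoters that often carry a cell cycle homology region (CHR) bound by the MuvB complex and CCAAT boxes bound by NF-Y. Marrow macrophages divide in M-CSF, and LPS is known to arrest their proliferation.

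Promoter sequences are shown for members that fell, rose or were not called with LPS, so that their CHR and CCAAT motifs can be compared. They come from RefSeq (assembly GRCm38.p6) and run from 250 bases before to 50 bases after the start of the gene, 5′ to 3′ on the strand of the gene, with motif matches in capitals. Kif23 lies at chr9:61946750-61947049 on the minus strand, Cenpa at chr5:30666636-30666935 on the plus strand and Cdc20 at chr4:118437294-118437593 on the minus strand. Mki67 lies at chr7:135716330-135716629 on the minus strand, Pttg1 at chr11:43425932-43426231 on the minus strand and Mad2l1 at chr6:66534971-66535270 on the plus strand.
Kif23 promoter: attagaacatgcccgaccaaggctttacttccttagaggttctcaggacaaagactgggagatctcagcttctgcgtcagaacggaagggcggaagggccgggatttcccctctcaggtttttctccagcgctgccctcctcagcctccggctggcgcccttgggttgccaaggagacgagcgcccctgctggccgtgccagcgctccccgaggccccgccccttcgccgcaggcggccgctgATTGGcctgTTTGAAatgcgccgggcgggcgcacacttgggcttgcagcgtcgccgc
Cenpa promoter: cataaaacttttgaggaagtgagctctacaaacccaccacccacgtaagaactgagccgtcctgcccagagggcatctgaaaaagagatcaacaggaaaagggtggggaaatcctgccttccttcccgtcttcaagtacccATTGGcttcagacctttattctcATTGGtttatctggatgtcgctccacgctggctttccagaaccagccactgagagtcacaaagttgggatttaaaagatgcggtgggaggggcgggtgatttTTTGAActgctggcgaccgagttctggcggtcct
Cdc20 promoter: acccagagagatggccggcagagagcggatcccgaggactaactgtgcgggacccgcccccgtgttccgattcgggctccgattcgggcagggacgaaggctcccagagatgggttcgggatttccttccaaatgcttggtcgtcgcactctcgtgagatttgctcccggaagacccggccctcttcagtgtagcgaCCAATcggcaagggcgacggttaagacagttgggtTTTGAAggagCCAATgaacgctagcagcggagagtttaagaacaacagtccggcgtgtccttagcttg
Mki67 promoter: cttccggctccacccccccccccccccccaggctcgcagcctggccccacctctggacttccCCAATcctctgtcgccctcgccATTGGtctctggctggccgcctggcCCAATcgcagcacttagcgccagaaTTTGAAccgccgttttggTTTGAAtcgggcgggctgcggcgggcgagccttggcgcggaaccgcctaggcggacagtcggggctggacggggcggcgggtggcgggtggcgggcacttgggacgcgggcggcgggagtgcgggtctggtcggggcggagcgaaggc
Pttg1 promoter: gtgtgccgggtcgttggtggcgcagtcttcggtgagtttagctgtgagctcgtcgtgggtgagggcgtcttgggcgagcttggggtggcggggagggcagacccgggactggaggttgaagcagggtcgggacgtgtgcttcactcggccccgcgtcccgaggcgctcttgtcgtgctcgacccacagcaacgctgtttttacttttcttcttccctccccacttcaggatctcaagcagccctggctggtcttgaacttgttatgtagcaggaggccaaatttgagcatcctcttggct
Mad2l1 promoter: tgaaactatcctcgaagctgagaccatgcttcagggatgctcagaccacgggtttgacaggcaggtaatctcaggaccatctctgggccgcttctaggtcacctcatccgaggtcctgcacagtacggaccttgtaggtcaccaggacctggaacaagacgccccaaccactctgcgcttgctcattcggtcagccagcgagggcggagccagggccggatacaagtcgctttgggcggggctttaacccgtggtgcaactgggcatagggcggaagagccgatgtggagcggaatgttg

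Of the 39 members, 31 matched an entry, with 33 promoters in all, because Prc1 and Ect2 have overlapping promoters that are counted separately. The CHR word TTTGAA, searched on both strands, was in 25 of these promoters (75.8%), or 23 of the 31 genes, against 17.9% of all 32851 promoters in the table. The word CCAAT, also searched on both strands, was in 25 of them (75.8%), or 23 of the 31 genes, against 37.4% of all promoters. The E2F words TTTCCCGC and TTTGGCGC were in 0 of the 33, against 1.56% of all promoters. That share is too low for 33 promoters to show a difference, and other forms of the E2F site were not searched. Kif23, Cenpa and Cdc20, which fell with LPS, each held 1 CHR word, with 1, 2 and 2 CCAAT words. Mki67, which rose with LPS, held 2 CHR words and 3 CCAAT words, while Pttg1, which also rose, and Mad2l1, which was not called in the reported fit but was called higher with the replicate number as a block, held 0 of each. Birc5, Nuf2 and Nusap1, which fell, also held 0 of each word, and Kif4, which was not called, held 1 CHR and 2 CCAAT words. The words differ in length and are compared here only as counts of matches.

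LPS lowered most of the mitosis and spindle genes in both genotypes. Averaged over the genotypes, 32 of the 37 tested members fell, 2 rose and 3 were not called at an adjusted p under 0.05 (limma, Benjamini-Hochberg over all 13116 genes), where 62.3% of all genes were called, 31.4% lower and 30.9% higher. The median member changed by -1.33 on the log2 scale, against 0.03 for all genes tested. Of the 37, 33 were well above background on all 12 arrays, and a test of the genes that met this called 28 of them lower and 2 higher, where 63% of all genes were called. Cdc25c, Aurkb and Kif2c passed the signal filter only through groups in which they were high, so their place in the counts rests in part on that filter. In ERRα-/- cells 30 fell and 2 rose, with 25.6% of all genes lower and 24.9% higher. In ERRα+/+ cells 28 fell and 2 rose, with 24.2% of all genes lower and 21.8% higher. The arrays of LPS and PBS did not overlap in 29 members that were lower and 2 that were higher in each genotype, which held for 29.9% and 29.7% of all genes in ERRα-/- cells and for 27.9% and 26.1% in ERRα+/+ cells.

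These counts move with how the 2 close replicates are treated. With replicates 2 and 3 of each group averaged into 1 value, 18 members fell and 1 rose in ERRα-/- cells, and 12 fell and 1 rose in ERRα+/+ cells, where 17.5% and 14.4% of all genes were called. Averaged over the genotypes, that fit called 27 lower and 2 higher, where 38.1% of all genes were called. Without ERRα+/+ PBS replicates 2 and 3, whose repeated spots scattered most, 14 members fell and 2 rose in ERRα+/+ cells, where 22.2% of all genes were called. With the replicate number as a block, 31 fell in each genotype, while 4 rose in ERRα-/- cells and 2 in ERRα+/+ cells, where 63.6% and 60.6% of all genes were called. In bulk RNA, fewer dividing cells and less of the transcript per cell cannot be told apart.

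**Figure D1:**
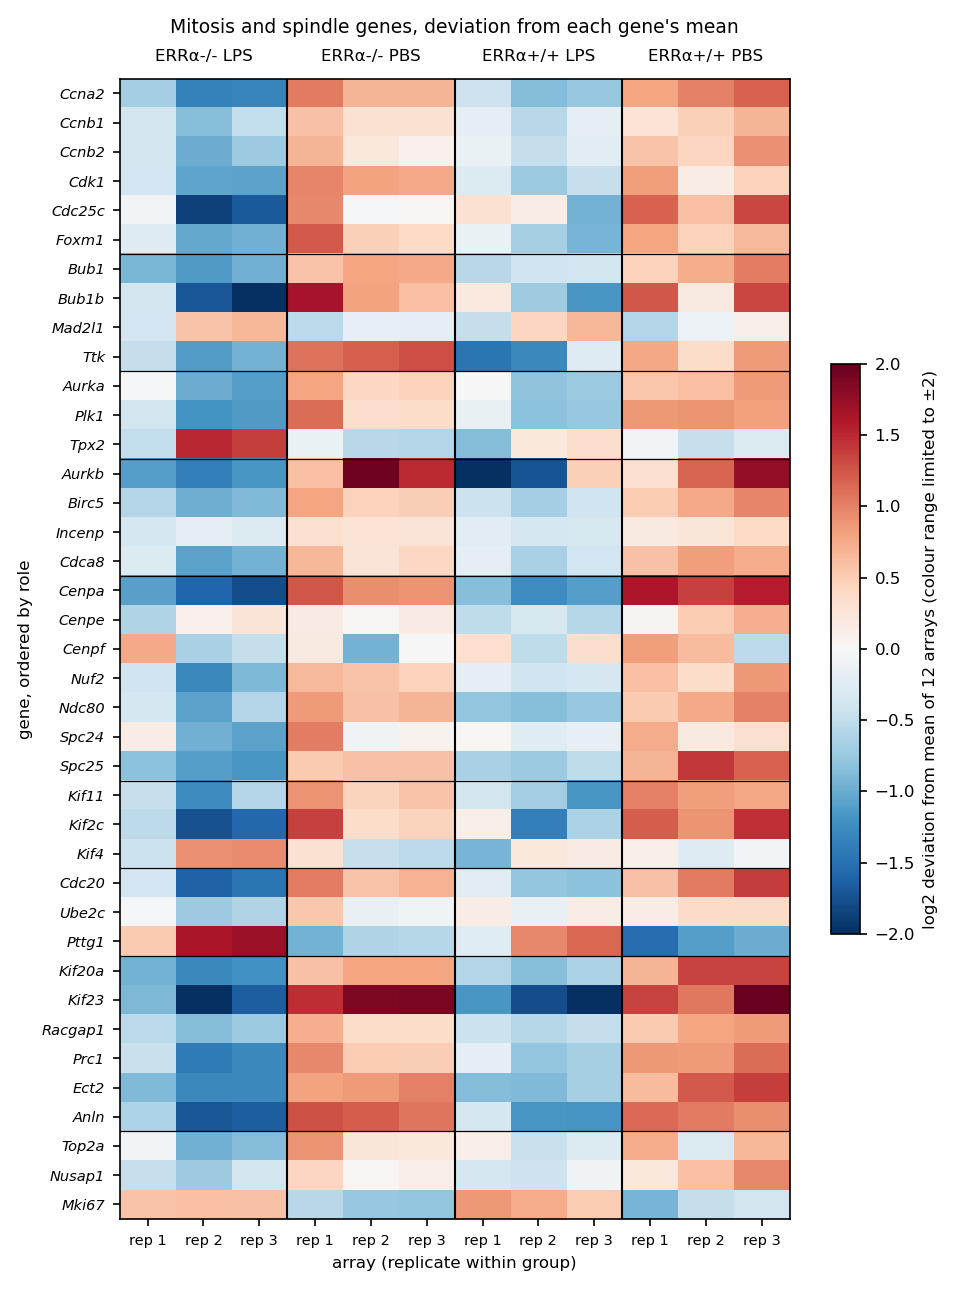
Signal of each member on each of the 12 arrays as the log2 deviation from its own mean over all arrays (colour), with genes in rows ordered by role and arrays in columns by group. Most rows are low on the 6 LPS arrays and high on the 6 PBS arrays, and Pttg1 and Mki67 run the other way.

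**Figure D2:**
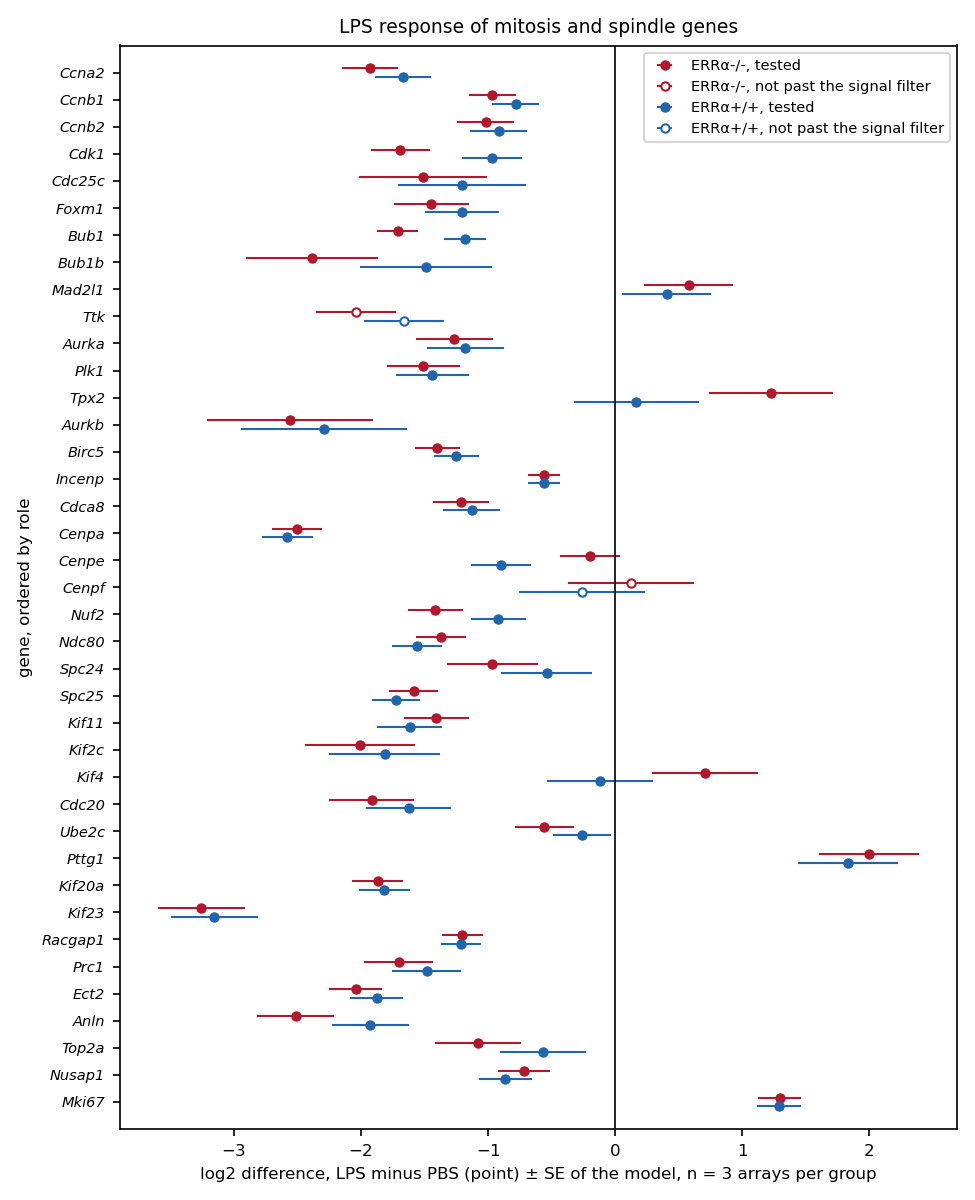
LPS minus PBS on the log2 scale (points) ± SE of the model for each member in ERRα-/- cells (red) and ERRα+/+ cells (blue), 3 arrays per group; open points are the 2 genes that were not tested. Kif23 lies farthest left at -3.26 and -3.15, and Pttg1 farthest right at 2.00 and 1.83; the values of Aurkb, Kif2c, Cdc25c and Kif23 include arrays not well above background.

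The 5 genes of cyclins, CDK1 and its activators that were well above background on all arrays fell over both genotypes, with a median of -1.33 on the log2 scale. Ccna2, the A-type cyclin of S phase and mitosis, read 0.08, -0.60 and -0.59 with LPS and 1.80, 1.44 and 1.44 with PBS in ERRα-/- cells. It read 0.33, -0.11 and 0.00 with LPS and 1.54, 1.76 and 1.94 with PBS in ERRα+/+ cells. Every LPS array was below every PBS array, and the change over both genotypes was -1.80 ± 0.16 (adjusted p = 5.18e-06). Cdk1, the kinase that starts mitosis, read -0.19, -0.86 and -0.88 with LPS and 1.18, 1.01 and 0.96 with PBS in ERRα-/- cells. In ERRα+/+ cells it read -0.07, -0.54 and -0.26 with LPS and 1.03, 0.35 and 0.65 with PBS. The groups did not overlap in either genotype (-1.33 ± 0.17, adjusted p = 5.88e-05). Foxm1, a transcription factor of late cell cycle genes, fell by 1.33, and the B-type cyclins Ccnb1 and Ccnb2 fell by 0.88 and 0.97. Cdc25c, a phosphatase that activates CDK1, was well above background on 0 of 3 ERRα-/- LPS, 2 of 3 ERRα-/- PBS, 2 of 3 ERRα+/+ LPS and 3 of 3 ERRα+/+ PBS arrays. Its mean in ERRα-/- PBS cells was itself below the floor of the ERRα-/- LPS arrays, so no fold is given and it is not counted among the 5.

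The spindle checkpoint delays anaphase until every chromosome is attached, and its members did not move together. Bub1, a checkpoint kinase, read -2.44, -2.65 and -2.48 with LPS and -0.94, -0.74 and -0.76 with PBS in ERRα-/- cells. In ERRα+/+ cells Bub1 read -2.07, -1.91 and -1.89 with LPS and -1.05, -0.78 and -0.50 with PBS. All LPS arrays lay below all PBS arrays (-1.45 ± 0.12, adjusted p = 2.98e-06). Bub1b, which encodes the checkpoint protein BUBR1, read -2.30, -3.64 and -4.00 with LPS and -0.30, -1.14 and -1.34 with PBS in ERRα-/- cells. In ERRα+/+ cells Bub1b read -1.74, -2.65 and -3.11 with LPS and -0.69, -1.75 and -0.60 with PBS, so the replicate 1 LPS array and a PBS array overlapped. It fell by 1.94 over both genotypes (adjusted p = 0.000906), but its adjusted p in ERRα+/+ cells, 0.0365, went up to 0.135 when single arrays were left out. Mad2l1, the checkpoint protein MAD2, was not called (0.49 ± 0.25, 95% interval -0.06 to 1.04, adjusted p = 0.106), and all 3 of its probes were higher with LPS in both genotypes. With the replicate number as a block Mad2l1 was called higher over both genotypes (adjusted p = 0.00440) and in ERRα-/- cells (0.58, adjusted p = 0.0133), but not in ERRα+/+ cells (0.40, adjusted p = 0.0584). Ttk, the checkpoint kinase MPS1, was well above background on 0 of 3 ERRα-/- LPS, 2 of 3 ERRα-/- PBS, 0 of 3 ERRα+/+ LPS and 1 of 3 ERRα+/+ PBS arrays and was not tested.

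Of the mitotic kinases and TPX2, 2 fell and 1 was not called. Plk1, the Polo-like kinase, read 1.17, 0.33 and 0.40 with LPS and 2.65, 1.89 and 1.90 with PBS in ERRα-/- cells. In ERRα+/+ cells Plk1 read 1.39, 0.71 and 0.78 with LPS and 2.41, 2.43 and 2.35 with PBS. The groups did not overlap (-1.47 ± 0.20, adjusted p = 0.000111). Aurka, the spindle pole Aurora kinase, read 0.90, -0.08 and -0.19 with LPS and 1.71, 1.33 and 1.39 with PBS in ERRα-/- cells. In ERRα+/+ cells Aurka read 0.91, 0.11 and 0.18 with LPS and 1.47, 1.51 and 1.77 with PBS. It fell by 1.22 (adjusted p = 0.000558), and on slide 1 as on slide 2 its LPS arrays were the lower ones.

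Tpx2, the activator of Aurora A on the spindle, is given here with every array because the slides disagreed on it; it was chosen after its values were seen. Tpx2 read 0.46, 2.45 and 2.33 with LPS and 0.81, 0.39 and 0.36 with PBS in ERRα-/- cells. In ERRα+/+ cells Tpx2 read 0.07, 1.15 and 1.29 with LPS and 0.88, 0.48 and 0.66 with PBS. On slide 1 the LPS array was lower in both genotypes (-0.58 over both), and on slide 2 the LPS arrays were higher (1.34 over both, adjusted p = 5.18e-06 within that slide). Over all arrays it was not called (0.70 ± 0.35, adjusted p = 0.103), and with the replicate number as a block it was called in ERRα-/- cells (1.23, adjusted p = 0.0497). Its second probe, well above background on 7 arrays, differed by 0.06 in ERRα-/- and -0.18 in ERRα+/+ cells.

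The chromosomal passenger complex corrects attachments and later directs cleavage, and the 3 of its 4 members that were well above background on all arrays fell. Birc5, which encodes survivin, read 2.73, 2.34 and 2.43 with LPS and 4.10, 3.78 and 3.81 with PBS in ERRα-/- cells. In ERRα+/+ cells Birc5 read 2.88, 2.63 and 2.91 with LPS and 3.82, 4.07 and 4.29 with PBS. Its LPS and PBS arrays were well apart (-1.33 ± 0.12, adjusted p = 8.85e-06), and its other 2 probes were also lower with LPS. Cdca8, which encodes borealin, read 2.09, 1.30 and 1.43 with LPS and 3.04, 2.63 and 2.78 with PBS in ERRα-/- cells. In ERRα+/+ cells Cdca8 read 2.18, 1.73 and 1.99 with LPS and 2.96, 3.21 and 3.12 with PBS. It fell by 1.17 (adjusted p = 9.27e-05) with no overlap of the groups. Incenp, the scaffold of the complex, fell less, by 0.56 (adjusted p = 0.000272). Aurkb, its kinase, was well above background on all PBS arrays and on 0 LPS arrays, and was at least 2.12-fold lower with LPS in ERRα-/- cells (adjusted p = 0.00812) and at least 2.04-fold lower in ERRα+/+ cells (adjusted p = 0.0153), a call lost in 2 of the fits that left out 1 array (adjusted p up to 0.0610). It passed the signal filter only through the PBS groups. Such a bound sets the mean of the bright group against the lowest level of a probe well above background on each dim array.

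All 6 tested centromere and kinetochore genes fell over both genotypes. Cenpa, the histone H3 variant that marks centromeres, read -0.73, -1.23 and -1.43 with LPS and 1.59, 1.28 and 1.25 with PBS in ERRα-/- cells. In ERRα+/+ cells Cenpa read -0.50, -0.89 and -0.75 with LPS and 1.97, 1.72 and 1.92 with PBS. Every LPS array was lower than every PBS array by more than 1 unit (-2.54 ± 0.14, adjusted p = 2.93e-07). Spc25, a subunit of the NDC80 complex that binds microtubules, read 1.48, 1.19 and 1.13 with LPS and 2.81, 2.87 and 2.88 with PBS in ERRα-/- cells. In ERRα+/+ cells Spc25 read 1.65, 1.55 and 1.78 with LPS and 2.97, 3.70 and 3.48 with PBS. It fell by 1.66 (adjusted p = 3.41e-06), without overlap. The other NDC80 subunits Ndc80, Nuf2 and Spc24 fell by 1.47, 1.17 and 0.75, and the call of Spc24 was lost when single arrays were left out (adjusted p up to 0.0586). Cenpe, the kinetochore kinesin CENP-E, fell by 0.55 over both genotypes (adjusted p = 0.0149), with -0.20 ± 0.24 in ERRα-/- cells (adjusted p = 0.511) and -0.90 ± 0.24 in ERRα+/+ cells (adjusted p = 0.0105), and the difference of these responses was not called (0.70 ± 0.34, adjusted p = 1.00). Cenpf was well above background on 0 arrays and was not tested.

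Of the 3 spindle motors, Kif11 and Kif2c fell. Kif11, the bipolar kinesin Eg5 that pushes spindle poles apart, read -2.72, -3.52 and -2.85 with LPS and -1.36, -1.82 and -1.69 with PBS in ERRα-/- cells. In ERRα+/+ cells Kif11 read -2.62, -2.96 and -3.43 with LPS and -1.26, -1.42 and -1.48 with PBS. The groups did not overlap (-1.51 ± 0.18, adjusted p = 4.38e-05). Kif2c, the microtubule-depolymerising kinesin MCAK, read -4.16, -5.38 and -5.21 with LPS and -2.26, -3.28 and -3.20 with PBS in ERRα-/- cells. In ERRα+/+ cells Kif2c read -3.52, -5.01 and -4.26 with LPS and -2.42, -2.74 and -2.18 with PBS. It was well above background on 0 of 3 ERRα-/- LPS arrays, where it was at least 2.67-fold lower than with PBS (adjusted p = 0.00338), and on 1 of 3 ERRα+/+ LPS arrays, where the measured difference of -1.81 (adjusted p = 0.00645) includes signals not well above background.

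Kif4, the chromokinesin KIF4A, was again chosen after its values were seen. Kif4 read -2.36, -1.02 and -0.99 with LPS and -1.63, -2.39 and -2.45 with PBS in ERRα-/- cells. In ERRα+/+ cells Kif4 read -2.86, -1.72 and -1.77 with LPS and -1.82, -2.19 and -1.98 with PBS. The LPS array was the lower one on slide 1 (-0.88 over both genotypes) and the LPS arrays were the higher ones on slide 2 (0.88, adjusted p = 2.57e-05 within that slide). The p-value within slide 2 again rests on close pairs of arrays, in a fit that called 80.6% of all genes. Over all arrays Kif4 was not called (0.29 ± 0.29, adjusted p = 0.409).

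Among the genes that act with the anaphase-promoting complex, Cdc20 fell in both genotypes and securin rose. In the reported fit Ube2c was called lower only over both genotypes. Cdc20, the activator that turns the complex on at anaphase, read 0.63, -0.61 and -0.46 with LPS and 2.03, 1.57 and 1.69 with PBS in ERRα-/- cells. In ERRα+/+ cells Cdc20 read 0.77, 0.21 and 0.19 with LPS and 1.59, 2.04 and 2.41 with PBS. It fell by 1.77 (adjusted p = 9.38e-05), with the groups apart on both slides. Ube2c, the ubiquitin-conjugating enzyme of the complex, fell by 0.41 (adjusted p = 0.0487), and the call was lost in 9 of 12 fits that left out 1 array (adjusted p up to 0.116). Pttg1, which encodes securin, the inhibitor of separase that the complex destroys at anaphase, read 6.27, 7.38 and 7.45 with LPS and 4.79, 5.14 and 5.16 with PBS in ERRα-/- cells. In ERRα+/+ cells Pttg1 read 5.51, 6.70 and 6.89 with LPS and 4.21, 4.64 and 4.74 with PBS. It rose by 2.00 ± 0.39 in ERRα-/- cells (adjusted p = 0.00203). In ERRα+/+ cells the rise of Pttg1 was 1.83 ± 0.39 (adjusted p = 0.00361), and its other probe was higher by 2.45 in ERRα-/- and 2.01 in ERRα+/+ cells.

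The 6 central spindle and cytokinesis genes had the lowest median of the role groups, -1.90, and all fell in both genotypes. Kif23, the kinesin MKLP1 of the central spindle, read -2.47, -3.56 and -3.22 with LPS and -0.10, 0.30 and 0.32 with PBS in ERRα-/- cells. In ERRα+/+ cells Kif23 read -2.73, -3.35 and -3.71 with LPS, with 2 of 3 arrays well above background, and -0.21, -0.52 and 0.40 with PBS. It showed the largest fall of the tested members, by 3.21 ± 0.24 (adjusted p = 2.14e-06), or 9.23-fold. Ect2, the exchange factor that activates RhoA at the cleavage site, read -2.17, -2.59 and -2.58 with LPS and -0.49, -0.45 and -0.28 with PBS in ERRα-/- cells. In ERRα+/+ cells Ect2 read -2.16, -2.17 and -1.96 with LPS and -0.66, -0.07 and 0.09 with PBS. The groups were apart by more than 1 unit (-1.96 ± 0.15, adjusted p = 1.94e-06). Racgap1, which forms the centralspindlin complex with KIF23, fell by 1.21, Prc1, the bundler of antiparallel microtubules, by 1.59, Kif20a, the kinesin MKLP2, by 1.84 and Anln, the contractile ring protein anillin, by 2.22.

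Among the chromosome and proliferation genes, Top2a and Nusap1 fell and Mki67 rose. Mki67, which encodes the proliferation antigen Ki-67, read 4.69, 4.72 and 4.70 with LPS and 3.56, 3.36 and 3.32 with PBS in ERRα-/- cells. In ERRα+/+ cells Mki67 read 4.98, 4.86 and 4.62 with LPS and 3.19, 3.65 and 3.75 with PBS. All LPS arrays were above all PBS arrays, with a rise of 1.29 ± 0.17 in each genotype (adjusted p = 0.000214 in ERRα-/- and 0.000229 in ERRα+/+ cells), and its other probe was higher by 1.33 and 1.42. Nusap1, a protein that bundles spindle microtubules, read -0.56, -0.82 and -0.47 with LPS and 0.32, -0.07 and 0.04 with PBS in ERRα-/- cells. In ERRα+/+ cells Nusap1 read -0.44, -0.51 and -0.17 with LPS and 0.12, 0.49 and 0.86 with PBS. It fell by 0.79 (adjusted p = 0.000808), and Top2a, the topoisomerase that untangles sister chromatids, fell by 0.82 (adjusted p = 0.0115). The difference of Top2a was -1.08 in ERRα-/- cells (adjusted p = 0.0218), a call lost in 3 of the fits that left out 1 array (adjusted p up to 0.0826). In ERRα+/+ cells it was -0.57 (adjusted p = 0.190, and 0.0267 with the replicate number as a block), and the difference of these responses was not called.

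**Figure D3:**
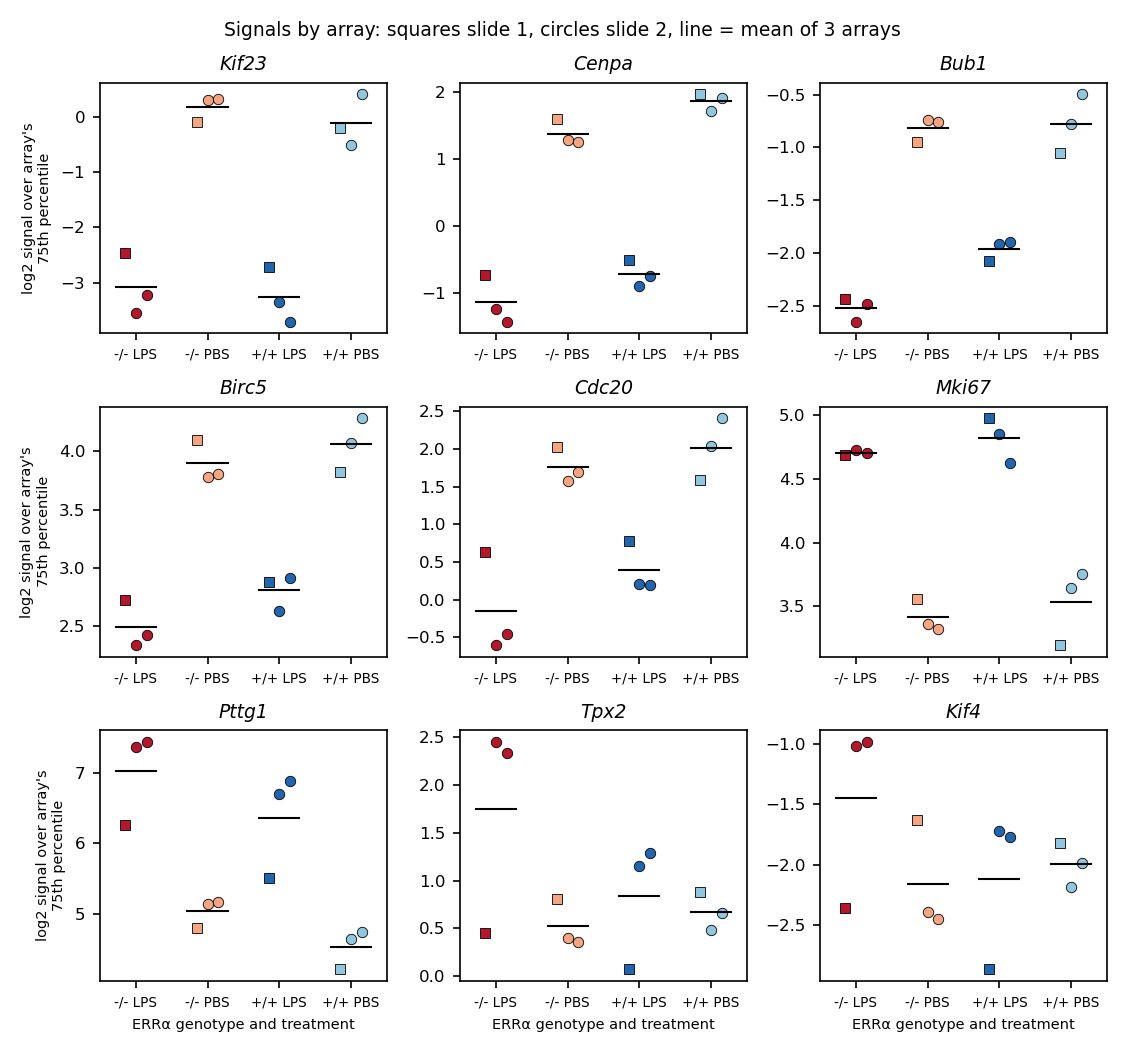
Log2 signal relative to the 75th percentile of the array, for 9 members on each of the 12 arrays; squares are slide 1, circles slide 2, lines the mean of 3 arrays, and the vertical axes differ between genes and do not start at 0. Kif23, Cenpa, Bub1, Birc5 and Cdc20 are lower with LPS, Mki67 and Pttg1 higher, and in Tpx2 and Kif4 the slides run opposite ways.

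Members with several probes mostly agreed. Of 14 such genes, 12 had the same sign with LPS for every probe in both genotypes, and the exceptions were Tpx2 and Nuf2, whose second probe was well above background on 0 arrays. Between the slides, 31 members were lower on both and 3 higher on both in ERRα-/- cells, and Cenpe, Kif4 and Tpx2 were lower on slide 1 and higher on slide 2. In ERRα+/+ cells 32 were lower on both, 3 higher on both, and Kif4 and Tpx2 went opposite ways. Of all genes, 48.5% were lower with LPS on slide 1 and 48.5% on slide 2 in ERRα-/- cells. In ERRα+/+ cells these shares were 50.4% and 50.1%. The share of all genes with the same direction on both slides was not counted. Within slide 2 alone 32 members fell and 5 rose over both genotypes, where 80.6% of all genes were called.

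Genes of the same processes outside the 39 were also mostly lower with LPS. In 4 other mitosis lists together, 66 of 109 tested genes fell and 13 rose over both genotypes, with a median of -0.90 on the log2 scale. Of all genes, 31.4% were called lower and 30.9% higher in this comparison. The kinetochore list had 20 lower and 4 higher of 30 (median -1.29). In it Nsl1, a subunit of the MIS12 complex, fell by 2.73 and Ska1, of the SKA complex, by 2.56, while Cenpt, which links centromeric chromatin to the kinetochore, rose by 1.13 and Zwint, a kinetochore adaptor, by 0.83. The kinesin, spindle and centrosome list had 22 lower and 1 higher of 30 (median -1.25). In it Aspm, a spindle pole protein, fell by 2.99 and Sass6, a centriole assembly factor, rose by 1.15. Kif18a, a kinesin that limits microtubule growth, was well above background on 0 LPS arrays and was at least 2.37-fold lower in ERRα-/- cells (adjusted p = 4.38e-06) and at least 3.03-fold lower in ERRα+/+ cells (adjusted p = 1.52e-05).

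The condensin and cohesin list had 11 lower and 1 higher of 20 (median -0.74), beside 31.4% of all genes lower and 30.9% higher. The condensin subunits Ncapg2 and Ncaph fell by 2.84 and 2.27, and Wapl, which releases cohesin, rose by 1.03. The list for entry and exit control had 13 lower, 7 higher and 9 not called of 29 (median -0.17), so most of this list did not fall. There the phosphatase gene Cdc25b fell by 3.14 and Fbxo5, the inhibitor EMI1 of the anaphase-promoting complex, by 2.39, while Cdc25a rose by 1.28 and Trip13, an ATPase that remodels MAD2, by 2.45. Trip13 read 2.83, 3.16 and 3.22 with LPS and 0.59, 0.80 and 0.72 with PBS in ERRα-/- cells, and 3.03, 3.36 and 3.39 with LPS and 0.54, 0.75 and 0.88 with PBS in ERRα+/+ cells. It was thus higher on every LPS array (adjusted p = 1.18e-07).

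Cell cycle transcription factors were split, with 7 lower and 6 higher of 19 (median -0.06). E2f2, an activating E2F, fell by 3.45 and E2f7, an atypical repressor, by 2.55, while E2f5, a repressive E2F, rose by 1.00 and Rbl1, the pocket protein p107, by 1.94. In the DNA replication list 28 of 38 fell and 4 rose (median -1.15). Cdc6, which loads the replicative helicase, had a measured difference of -2.99 that passed the test, but only 1 of 3 LPS arrays of each genotype was well above background, and Rrm2, of ribonucleotide reductase, fell by 2.55. Ccne1, cyclin E1, rose by 1.17 and Tyms, thymidylate synthase, by 1.21. No list is called particular from these counts, and each is read beside the 31.4% of all genes that were lower and the 30.9% that were higher.

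**Figure D4:**
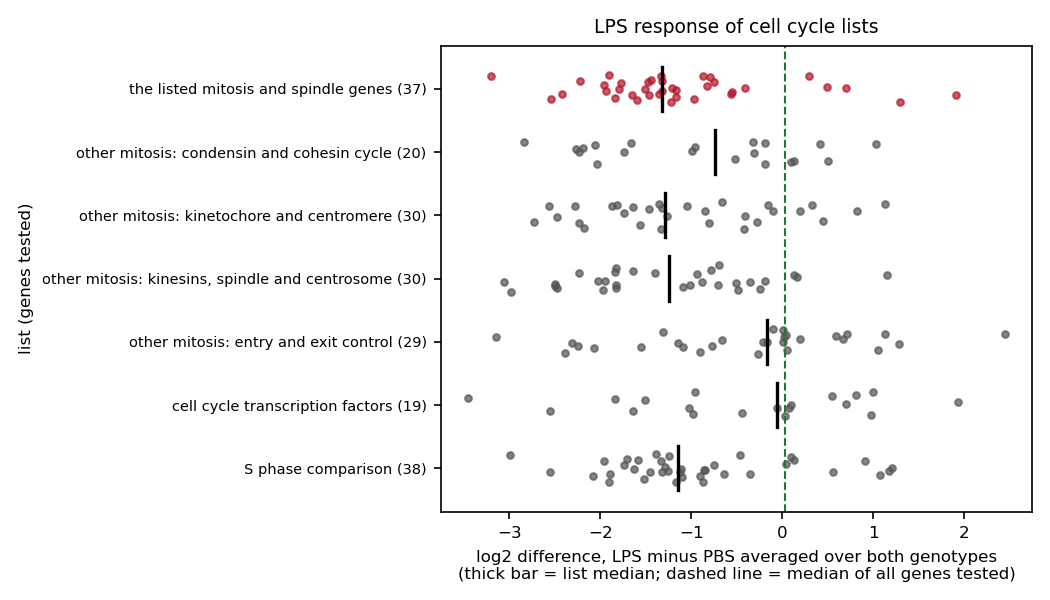
LPS minus PBS averaged over both genotypes on the log2 scale, 1 point per tested gene, for the 39-gene list (37 tested) and 6 other cell cycle lists, of which the S phase one is the DNA replication list; thick bars are list medians and the dashed line is the median of all genes tested, 0.03. Points left of -3 include Kif18a, whose LPS arrays were not well above background. The medians run between -1.33 for the listed members and -0.06 for the transcription factors.

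The genotypes were compared under LPS, under PBS and over both. No member was called in any of these comparisons in limma, where 0.145% of all genes were called under LPS, 0.45% under PBS and 1.33% over both. At an unadjusted p under 0.05 in the same fit there were 3, 2 and 6 members. The share of all genes at that unadjusted threshold was not counted, and the percentages above do not apply to it. These numbers are therefore not read as a result about the members. Over both treatments the median member differed by -0.24 on the log2 scale (ERRα-/- minus ERRα+/+), against -0.02 for all genes, and 28 of 37 were lower in ERRα-/- cells, as were 54.2% of all genes. Spc25 had the lowest adjusted p (-0.47 ± 0.13, 95% interval -0.76 to -0.17, adjusted p = 0.177), followed by Cenpa (-0.46 ± 0.14, 95% interval -0.77 to -0.14, adjusted p = 0.222). Pttg1 was higher in the mean by 0.58 ± 0.28 (95% interval -0.03 to 1.20, adjusted p = 0.563). With the replicate number as a block Cenpa alone was called, lower in ERRα-/- cells (adjusted p = 0.0308), where 3.9% of all genes were called. With slide as a block Cenpa (adjusted p = 0.0155) and Pttg1 (higher, adjusted p = 0.0466) were called, where 4.93% of all genes were called. With replicates 2 and 3 averaged, 0 members were called in limma and 0 had an unadjusted p under 0.05 in any genotype comparison, and 0% of all genes were called over both treatments.

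Under LPS the 3 arrays of each genotype did not overlap for 5 members that were lower in ERRα-/- cells, Bub1, Nuf2, Spc25, Kif20a and Ect2, where 7.38% of all genes were lower without overlap. Under PBS this held for Cenpa and Spc25 (8.65% of all genes), and Pttg1 was higher without overlap (5.61%).

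The slides gave opposite directions under PBS. On slide 1, with 1 array per group, 31 of 37 members were higher in the ERRα-/- PBS array, with a median of 0.16 on the log2 scale, where 41.6% of all genes were higher. On slide 2, with 2 arrays per group, 31 of 37 were lower in ERRα-/- PBS arrays, with a median of -0.34, where 52.7% of all genes were lower. Of the 37, 25 were higher on slide 1 and lower on slide 2, 6 were lower on both and 6 higher on both. Under LPS both slides had 29 of 37 members lower in ERRα-/- arrays, 26 of them the same genes, with medians of -0.15 on slide 1 and -0.49 on slide 2, where 54.6% and 48.7% of all genes were lower. Slide 1 holds 1 array per group, so no test was possible there. How many of all genes kept or changed their direction between the slides was not counted.

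Within slide 2 alone, 18 members were called lower and 2 higher in ERRα-/- cells over both treatments, where 20.5% of all genes were called. Under LPS 13 were lower and 4 higher (17.4% of all genes called), and under PBS 8 were lower and 1 higher (9.74%). Plk1 (-0.44, adjusted p = 0.00465), Spc24 (-0.54, adjusted p = 0.00503) and Kif20a (-0.54, adjusted p = 0.00524) had the lowest adjusted p among those lower over both treatments, and Pttg1 (0.54, adjusted p = 0.00464) and Tpx2 (0.49, adjusted p = 0.00721) were higher. On slide 1 the same differences over both treatments were 0.02 for Plk1, 0.20 for Spc24, -0.23 for Kif20a, 0.67 for Pttg1 and 0.15 for Tpx2. The ERRα+/+ PBS arrays of slide 2 are the 2 with the highest scatter between repeated spots, and its 2 arrays per group are the close pairs described above; the part of either in these calls was not tested.

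**Figure D5:**
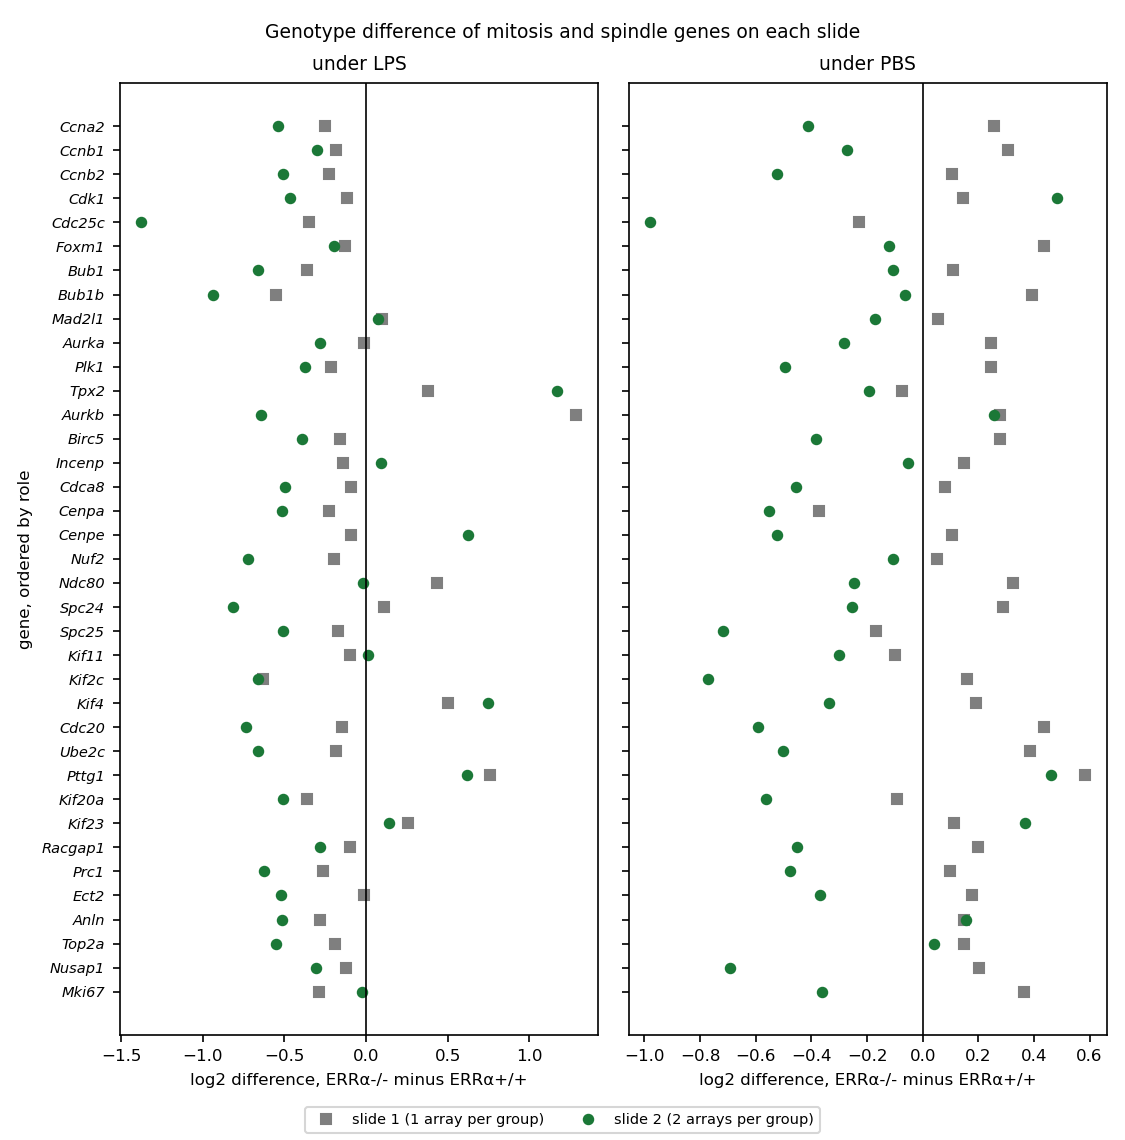
ERRα-/- minus ERRα+/+ on the log2 scale for each tested member, under LPS (left) and under PBS (right); squares are slide 1 with 1 array per group and circles slide 2 with the mean of 2 arrays per group. Under PBS most squares lie right of 0 and most circles left of it, while under LPS 29 squares and 29 circles lie left of 0.

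The LPS response did not differ between genotypes for any member in the test of that difference (0 called, as for 0% of all genes). In limma 1 member had an unadjusted p under 0.05, a threshold at which all genes were not counted. That member, Bub1, had a response of -1.71 in ERRα-/- and -1.18 in ERRα+/+ cells (difference -0.53, 95% interval -1.04 to -0.02, adjusted p = 1.00). The lowest limit of any member's interval was -2.52 (Bub1b) and the highest was 2.60 (Tpx2), so differences of more than 2 units were not bounded for every gene. Within slide 2, Tpx2 (1.36, adjusted p = 0.0152), Kif4 (1.08, adjusted p = 0.0183) and Cenpe (1.15, adjusted p = 0.0349) had a more positive response in ERRα-/- cells and Anln (-0.67, adjusted p = 0.0404) a more negative one, where 4.35% of all genes were called. On slide 1 these differences were 0.46 for Tpx2, 0.31 for Kif4, -0.20 for Cenpe and -0.43 for Anln.

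Markers of other cells were examined beside these results. The summed linear signal of 9 neutrophil and progenitor markers, relative to the 75th percentile, was 274 to 434 in ERRα-/- LPS, 204 to 246 in ERRα-/- PBS, 231 to 459 in ERRα+/+ LPS and 271 to 388 in ERRα+/+ PBS arrays, led by S100a9. Of these 9 genes 0 rose and 2 fell with LPS over both genotypes. In ERRα-/- cells alone 1 rose and 0 fell, and in ERRα+/+ cells 0 rose and 1 fell. The 9 macrophage markers summed to 1412 to 1737 in ERRα-/- LPS, 1010 to 1420 in ERRα-/- PBS, 1339 to 1589 in ERRα+/+ LPS and 736 to 1295 in ERRα+/+ PBS arrays, with 2 higher and 1 lower with LPS over both genotypes. The erythroid and megakaryocyte markers Hbb-bs, Alas2 and Klf1 were well above background on 0 arrays. That list, led by Pf4, summed to 88.9 to 95.3 in ERRα-/- LPS, 58.6 to 62.6 in ERRα-/- PBS, 128 to 182 in ERRα+/+ LPS and 69.6 to 109 in ERRα+/+ PBS arrays, and Gp9, a platelet glycoprotein gene, was lower in ERRα-/- cells over both treatments (-1.14, adjusted p = 0.00521). The 9 stromal and endothelial markers, led by Col1a2, summed to 6.71 to 12.9 in ERRα-/- LPS, 4.03 to 4.57 in ERRα-/- PBS, 12.3 to 17.0 in ERRα+/+ LPS and 6.64 to 12.5 in ERRα+/+ PBS arrays, and Acta2, smooth muscle actin, was lower in ERRα-/- cells (-1.04, adjusted p = 0.0448). Lymphocyte markers, led by Cd4, summed to 13.5 to 24.7 over the 12 arrays, with Cd8a well above background on 0 of them. Mast cell and basophil markers, led by Prss34, summed to 0.954 to 3.81, with Ms4a2 and Fcer1a well above background on 0 arrays. The dendritic cell markers, led by Siglech, summed to 211 to 301 in ERRα-/- LPS, 198 to 217 in ERRα-/- PBS and 202 to 279 in ERRα+/+ LPS arrays. They summed to 178 and 62.0 on ERRα+/+ PBS replicates 1 and 2, and to 4.14 on ERRα+/+ PBS replicate 3, where the Siglech spot was left out. Of 6 tested dendritic cell genes 3 rose and 2 fell with LPS over both genotypes, Siglech being fitted without that array, and Xcr1 was well above background on 0 arrays. The part of these cells in the differences of the mitosis and spindle genes was not tested.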

How the data were processed

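Macrophage RNA was hybridised in 12 samples to 1-colour Agilent arrays. Per the file headers, the deposited signal intensity values come from Feature Extraction 11.5.1.1, which subtracted the background and removed spatial trends on each array and did not scale arrays to each other. Version 9.3.2.1 is the one given per the submitters' processing notes. The other deposited columns used were, per the file headers, the median spot intensity, the median local background intensity and 0 or 1 flags for spots. The authors' deposited table of processed values equalled these signal values. The labels give a different array format for replicate 1, but all 12 files held 62976 spots of 1 design.

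From these, the log2 of the processed signal minus the 75th percentile of the array was computed. Control and non-uniform spots were left out and spots of a probe averaged. Probes were named by accession through RefSeq (GRCm38.p6): 27509 probes named 20887 genes and 28172 had no name. A probe was kept if any group had it well above background on its 3 arrays, and each gene was represented by its brightest probe. Differences were tested with limma 3.58.1 (R 4.3.3), with 1 mean per group over all 12 arrays. Benjamini-Hochberg adjustment was over 13116 genes, and genes were called at an adjusted p under 0.05. The step was tested on simulated data with independent noise on each array, which does not cover the closeness of replicates 2 and 3. Values are log2 differences ± SE of the model. The number of arrays limits the precision. Same-numbered arrays of different groups deviated together (correlations of 0.148 to 0.838 over all probes). Replicates 2 and 3 of different groups, which share a slide, also did (0.213 to 0.648). Whether the number marks a pairing beyond the slide thus cannot be told, and the fit reported has neither as a block.

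The members and lists were chosen with earlier results of these data known. All arrays are given for the 2 members per role with the lowest adjusted p for LPS and for members that moved against most others. Outside this rule they are also given for Esrra, Tpx2, Kif4 and Trip13. Of each list, the 2 largest called falls and rises are named. Alternatives were other background and scaling methods, signal filters, probe averaging, slide or replicate as a block, slides apart, array weights, a trended robust fit, the authors' table and leaving out arrays. Averaging replicates 2 and 3 and leaving out 2 scattered arrays were added after the data were seen.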

Additional observations from a re-analysis of the deposited data

How the results depend on the processing

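The LPS counts over both genotypes kept their direction in all alternatives and ranged from 29 to 37 members called; leaving out 1 array gave 32 to 36. Quantile scaling moved the median of all genes by LPS to -0.16, from which 3268 genes rose and 5029 fell against 4047 and 4122 with percentile scaling, and it still called 32 members lower and 2 higher. Averaging replicates 2 and 3 called 19 members in ERRα-/- and 13 in ERRα+/+ cells, and leaving out ERRα+/+ PBS replicates 2 and 3 called 16 in ERRα+/+ cells. Of single calls, 28 of 32 in ERRα-/- cells (not Cdc25c, Nusap1, Spc24 and Top2a), 28 of 30 in ERRα+/+ cells (not Aurkb and Bub1b) and 32 of 34 over both (not Spc24 and Ube2c) were kept whichever array was left out. Kif4 and Tpx2 turned on slide 1 alone (-0.88 and -0.58), and Kif4 was -0.0018 with replicates 2 and 3 averaged; the cause was not tested.

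The genotype counts depended on the setting, and the cause was not tested. Over both treatments 2 members were called with slide as a block, 1 with the replicate block, 20 within slide 2, 22 with array weights, 0 with replicates 2 and 3 averaged and 0 to 2 when 1 array was left out (2 without ERRα+/+ PBS replicate 1, 1 without ERRα-/- LPS replicate 1). Under LPS 17 were called within slide 2 and 24 with array weights, and under PBS 9 and 11. For the difference of the LPS response, 4 were called in each of these 2 settings. With array weights 2649 of all 13116 genes were called over both treatments, 2520 under LPS, 1186 under PBS and 504 for the difference of responses. Without ERRα+/+ PBS replicate 1, 161 of all genes were called over both treatments, and without ERRα-/- LPS replicate 1, 274. The replicate block changed no other genotype call of a member. With LPS the block added calls for Mad2l1 over both genotypes, for Mad2l1 and Tpx2 higher and Ube2c lower in ERRα-/- cells, and for Cdc25c, Spc24 and Top2a lower in ERRα+/+ cells. Over all genes, calls ranged from 0 to 2689 over both treatments (174 in the fit reported), 0 to 2520 under LPS (19), 0 to 1277 under PBS (59) and 0 to 570 for the difference of responses (0); with LPS they ranged from 2295 to 10573 in ERRα-/- (6617), 1891 to 9518 in ERRα+/+ (6031) and 5002 to 10796 over both (8169). Signals near background limit Aurkb, Kif2c, Cdc25c, Ttk and Cenpf; with normexp background correction the median LPS change of the members was -0.99.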
